A study of Mus musculus with 4 samples.

Results

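The genes of potassium, calcium and sodium channel subunits were examined in a map of PPARγ binding in mouse alveolar macrophages (AMs). The genes were taken by symbol, as every protein-coding gene beginning with Kcn, Cacna or Cacnb, plus Scn followed by a number and a or b. This gave 126 of 20923 protein-coding genes on chromosomes 1 to 19 and X. The symbols cover more than voltage-gated channels, because inward rectifier, tandem-pore-domain and calcium-activated potassium channels and several auxiliary subunits carry Kcn symbols too. The genes are therefore called channel genes here. PPARγ binding was profiled by HT-ChIPmentation, in which chromatin on the antibody beads is tagged with sequencing adapters by a transposase, in AMs sorted from bronchoalveolar lavage of 9-week-old wild-type (WT) C57BL/6J mice. The single group held 2 PPARγ libraries, each with an input library as its background, and all carried the WT genotype with no treatment. No label says that the libraries came from separate animals or pools of animals, and with 1 group there is no contrast to test. All values below are therefore descriptions, and the 95% Wilson intervals cover counting error over genes or regions only.

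Channels of this kind set the membrane potential of a cell. A pore-forming subunit passes the ion, and auxiliary subunits change how many pores reach the membrane and how they open. Voltage-gated sodium and calcium channels carry action potentials and contraction in nerve and muscle, whereas macrophages, which do not fire action potentials, are known mainly for potassium channels such as Kv1.3 and Kir2.1 and for a proton channel. PPARγ is a nuclear receptor that binds DNA together with RXR, typically at a direct repeat of a hexamer spaced by 1 base, called DR1, and it is required for the AM lineage.

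Peaks had been called in each library separately against input at a q-value of at most 0.05, with 83787 peaks in library 1 and 28535 in library 2. Peaks that overlapped by 1 bp or more were merged, and the 20233 regions that held peaks of both libraries were kept as consensus regions. Each region went to the protein-coding gene with the transcription start site (TSS) nearest its centre, and a gene with at least 1 region is called marked. Strength is the authors' fold enrichment over input at a peak, for the highest peak of each library in a region. Regions were ranked by the lower of their percentiles in the 2 libraries, so that rank 1 is the strongest in both and tied regions share a rank. All 8 of 8 listed AM markers were marked, with 67 regions in all. Among other markers, 0 of 8 neuron, 1 of 8 muscle and 2 of 8 lung epithelium markers were marked, against 31.6% of all protein-coding genes. The AM list holds Pparg itself and was chosen with earlier results of these data known, so these counts do not check the cell label.

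Of the 126 channel genes, 18 were marked, which is 14.3% (interval 9.23% to 21.5%). Over all protein-coding genes, 31.6% were marked. The 18 genes were nearest to 76 of the 20233 regions, or 0.376%. The share was also below the all-gene share when each library was read alone. A library 1 peak was nearest to 59 channel genes (46.8%, interval 38.3% to 55.5%), against 60.6% of all genes. A library 2 peak was nearest to 24 channel genes (19.05%, interval 13.1% to 26.8%), against 34.9% of all genes. By gene body instead of nearest TSS, 14 channel genes (11.1%) had a region centre between their first and last transcribed base, against 19.7% of all genes. Outside the 18 marked genes, 6 had peaks of both libraries at separate places, 35 had peaks of library 1 only, and 67 (53.2% of the 126) had no peak of either. Of the 108 unmarked channel genes, 67 had no library 1 peak, against 8244 (57.6%) of the 14308 unmarked protein-coding genes.

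**Figure D1:**
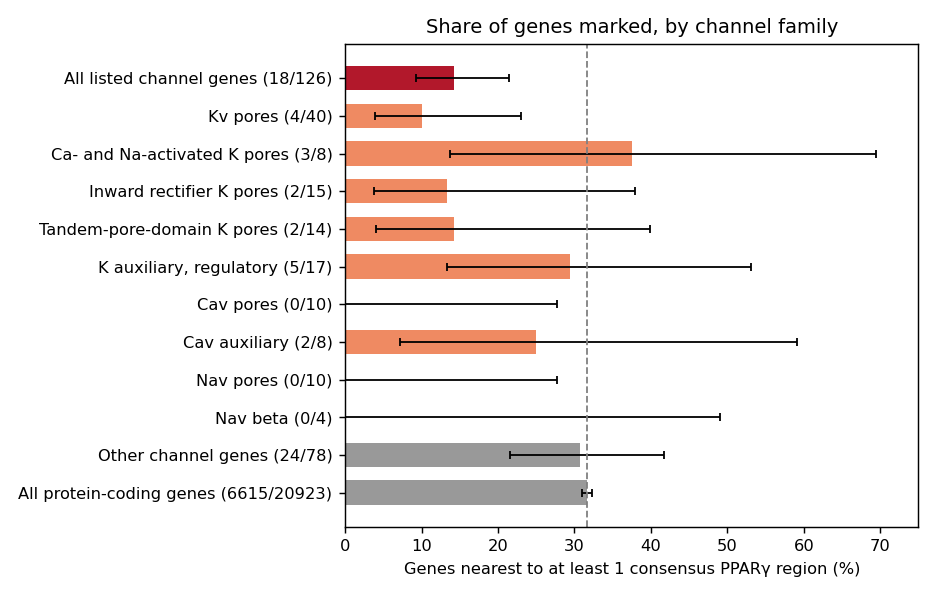
Share of genes nearest to at least 1 consensus PPARγ region (horizontal axis, percent) for all 126 channel genes, 9 families of them, 78 other channel genes and all protein-coding genes, with marked and total genes in brackets and 95% Wilson intervals as lines. The dashed line is the all-gene share of 31.6%. The Cav and Nav pores and the Nav β subunits (voltage-gated calcium and sodium channels) stand at 0. The potassium pores labelled calcium- and sodium-activated, a family grouped by symbol, stand highest, at 37.5% of only 8 genes.

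Channel genes lie in longer stretches of genome than most genes, so the share was also read by territory, the length of sequence that lies nearer to a gene's TSSs than to those of any other gene. The median territory was 110 kb for channel genes and 48.8 kb for all genes, and the median gene length was 42.5 kb and 16.8 kb. Among all genes the share marked was higher in longer territories, at 24.3% in the quintile of shortest territories, then 28.1%, 32.6%, 36.9% and 36.1% in the longest. Among channel genes it was 2 of 10 (20%) in the shortest quintile, then 3 of 12 (25%), 1 of 17 (5.88%), 5 of 36 (13.9%) and 7 of 51 (13.7%) in the longest. The channel share was thus the lower one in each of the 5 quintiles, with intervals that include the all-gene share in the shortest 2 and lie below it in the other three. Per Mb of territory, channel genes had 2.45 regions and all genes 7.68. Without the 3 genes with the most regions, the remaining 123 channel genes had 1.06 regions per Mb.

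**Figure D2:**
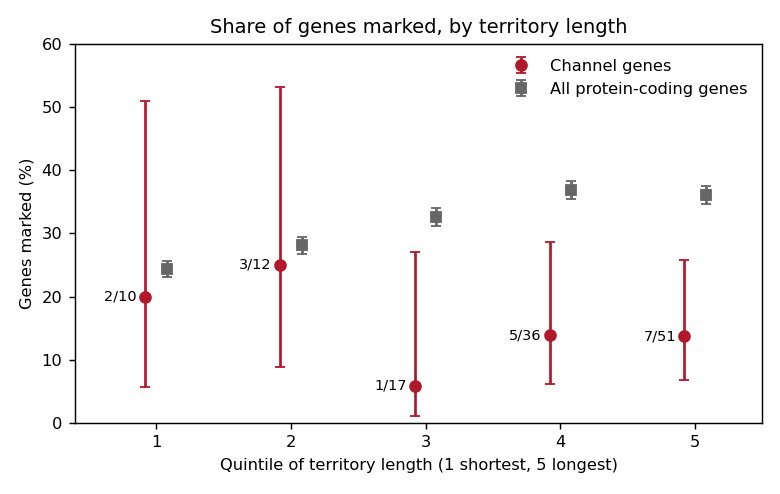
Share of genes marked (vertical axis, percent) in quintiles of territory length, from shortest (1) to longest (5), for channel genes (circles, with marked and total genes) and all protein-coding genes (squares), with 95% Wilson intervals. The channel genes sit at 5.88% to 25% and all genes at 24.3% to 36.9%.

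The neighbours of channel genes were not bare of binding. Of the 108 channel genes without a region, 57 (52.8%) had a marked gene directly beside them, and 12 (11.1%) had one on both sides. Among the 14308 unmarked protein-coding genes of the genome, these shares were 40.1% and 7.93%. Of the 18 marked channel genes, 13 (72.2%) had a marked neighbour and 7 (38.9%) had one on both sides, against 72.2% and 23.7% of all marked genes.

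By role, 11 of 97 pore-forming subunits were marked (11.3%, interval 6.45% to 19.2%), with 37 regions. Of the auxiliary and regulatory subunits, 7 of 29 were marked (24.1%, interval 12.2% to 42.1%), with 39 regions. Most regions fell to few genes. Kcnrg had 17, Kcna3 had 15 and Kcnip4 had 13, together 45 of 76 (59.2%). Of the other 15 genes, Kcnn3 had 4, 8 had 2 or 3, and 6 had 1. The median was 2.5 regions per marked channel gene and 2 per marked gene of the genome, where 99 genes had 17 regions or more. Of the 18 genes, 9 lost their mark under at least 1 of 4 stricter settings for peaks or their overlap, namely Cacnb2, Kcna2, Kcnab3, Kcne3, Kcnj15, Kcnk7, Kcnn1, Kcnn3 and Kcnu1. The settings were a stricter q-value, a higher fold enrichment, reciprocal overlap and close summits. In that order, 17, 13, 14 and 13 channel genes were marked, against 18. Over all genes the counts were 6314, 4754, 4690 and 5059, against 6615.

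The medians of strength were close to those of all regions. The median fold enrichment was 6.96 in library 1 (range 2.61 to 23.4) and 5.21 in library 2 (range 3.01 to 17.6), against 6.81 and 5.35 over all regions. Their median width was 699 bp, against 626 bp. Of the 76, 9 (11.8%) were in the top 10% by rank, against 10.4% of all regions. Of these 9, Kcna3 had 4, Kcnrg 2, and Kcnip1, Kcnip4 and Kcnj2 1 each. Without Kcnrg, Kcna3 and Kcnip4, the remaining 31 regions had medians of 7.70 and 4.85, and 6.45% were in the top 10%.

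**Figure D3:**
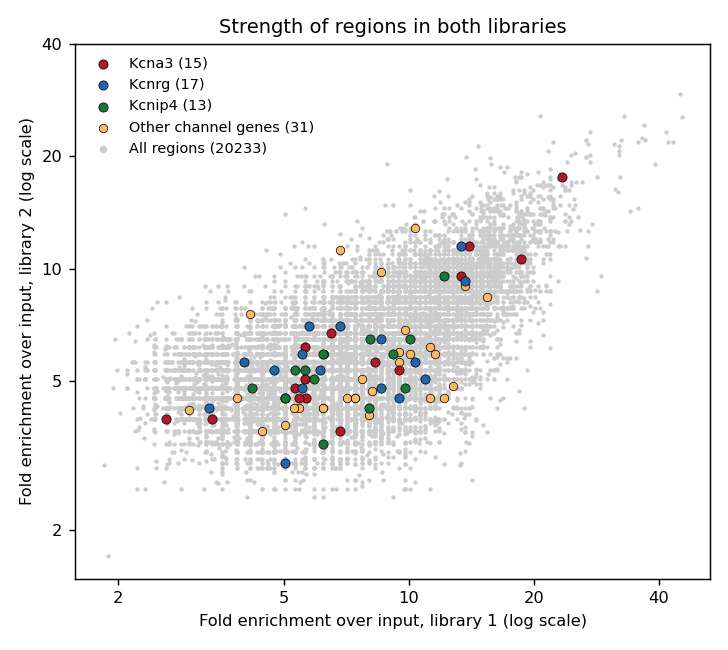
Fold enrichment over input in library 1 (horizontal) and library 2 (vertical), both on log scales, for the 76 regions of channel genes (coloured by gene) over all 20233 consensus regions (grey). The regions of channel genes lay within the range of the whole set but below its highest values, 45.3 and 29.4. Among them, 1 region of Kcna3, at 23.4 and 17.6, was above the others in both libraries.

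The regions lay far from start sites. Their median distance from the TSS of the assigned gene was 33.0 kb, against 8.46 kb over all regions, and 32.9% lay over 50 kb away, against 16.8%. Both values were lower without Kcnrg, Kcna3 and Kcnip4 together. The other 31 regions had a median distance of 15.6 kb, still above that of all regions. Of them, 12.9% lay over 50 kb away, below the share of all regions. Without Kcna3 alone both values were higher, at 36.1 kb and 39.3%. Marked channel genes had a median territory of 112 kb, against 59.0 kb for all marked genes. Distances were not compared at like territory length. Of the 76 regions, only 5 (6.58%) were in promoters, a window of 1 kb before and 100 bp after a TSS, against 18.6% of all regions. Within 3 kb of a TSS were 15.8%, against 38.6%. Among Kcnrg, Kcna3 and Kcnip4, only Kcnip4 had a region centre in the promoter window. Without these genes, 74.2% of the other 31 regions lay over 3 kb from a TSS. This compares with 84.2% of the 76 and 61.4% of all regions. Introns held 39 of the 76 (51.3%), against 46.9%. Intergenic sequence held 29 (38.2%), against 31.0%, and exons held 3 (3.95%), against 3.55%. By position relative to the assigned gene, 21 centres were in its own body, 22 in the body of another gene and 33 between genes. Kcnrg had 10 of the centres in another gene's body and 7 of those between genes, and Kcna3 had 5 and 9. Most regions counted for a channel gene thus lay outside it, and the nearest TSS does not show which gene a region acts on. These positions were not counted over all regions, so they are not shown to be particular to channel genes.

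**Figure D4:**
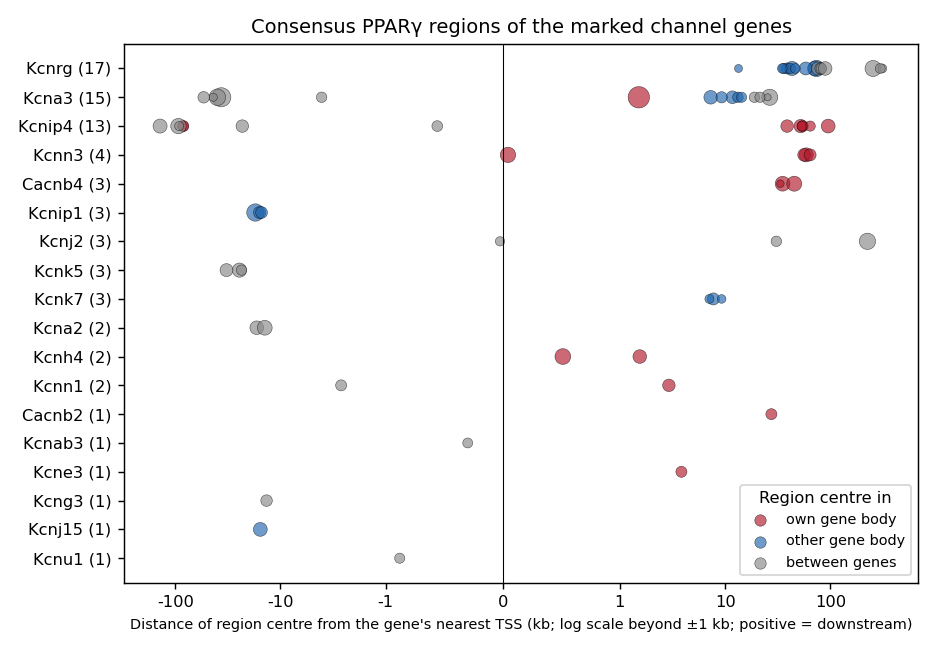
Distance of each of the 76 region centres from the nearest TSS of its gene (horizontal axis, kb, log scale beyond 1 kb on either side, downstream to the right), 1 row per marked gene with its number of regions, point area in proportion to library 1 fold enrichment, and colour for where the centre lies. Only Kcna3, Kcnip4, Kcnn1 and Kcnj2 had regions on both sides of their TSS.

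The sequences of the 9 regions in the top 10% by rank are shown, since these carry the strongest binding at channel genes. Each is the 81 bases around the library 1 summit (the base of highest signal) in mm10, read on the plus strand, with matches to the motifs of CEBP (TTGCNNAA), AP-1 (TGANTCA) and PU.1 (GAGGAAGT) on either strand in capitals. Of the 9, 5 hold such a match in this window and 4 hold none. The window of the Kcna3 TSS region is centred on its summit, which lies upstream of the TSS, at -1.12 kb.
Kcna3, TSS region, CEBP and AP-1, chr3:107035006-107035086: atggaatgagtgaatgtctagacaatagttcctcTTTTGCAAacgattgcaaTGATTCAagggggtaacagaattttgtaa
Kcna3, 36.5 kb upstream, PU.1, chr3:107000265-107000345: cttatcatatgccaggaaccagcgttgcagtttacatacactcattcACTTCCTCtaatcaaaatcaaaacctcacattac
Kcna3, 39.7 kb upstream, no match, chr3:106996166-106996246: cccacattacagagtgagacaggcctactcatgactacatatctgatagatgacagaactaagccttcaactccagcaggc
Kcna3, 26.5 kb downstream, AP-1 at 3 places, chr3:107062902-107062982: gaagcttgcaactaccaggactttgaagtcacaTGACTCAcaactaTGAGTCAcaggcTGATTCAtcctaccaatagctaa
Kcnrg, 73.7 kb downstream at the Dleu2 TSS, CEBP, chr14:61682348-61682428: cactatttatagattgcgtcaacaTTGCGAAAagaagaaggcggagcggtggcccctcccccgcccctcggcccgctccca
Kcnrg, 254 kb downstream, CEBP, chr14:61861508-61861588: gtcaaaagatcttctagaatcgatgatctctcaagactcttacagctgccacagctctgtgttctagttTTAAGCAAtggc
Kcnj2, 225 kb downstream, no match, chr11:111290638-111290718: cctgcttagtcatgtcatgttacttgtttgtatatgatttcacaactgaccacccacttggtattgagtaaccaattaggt
Kcnip4, 93.1 kb upstream, no match, chr5:49617782-49617862: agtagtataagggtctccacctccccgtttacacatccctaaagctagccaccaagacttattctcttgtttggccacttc
Kcnip1, 17.3 kb upstream, no match, chr11:34010392-34010472: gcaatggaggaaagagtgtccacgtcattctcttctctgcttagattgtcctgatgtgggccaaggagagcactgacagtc

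Motifs were counted within 100 bp of the library 1 summit, on both strands. CEBP, AP-1 and PU.1 are factors that shape macrophage enhancers. A CEBP match was in 20 of the 76 regions (26.3%, interval 17.7% to 37.2%), against 15.1% of all regions. A PU.1 match was in 8 (10.5%, interval 5.43% to 19.4%), against 6.83%, and an AP-1 match in 6 (7.89%, interval 3.67% to 16.2%), against 9.98%. The CEBP matches were at 7 regions of Kcnrg, 5 of Kcnip4, 3 of Kcna3 and 1 each of Kcne3, Kcnh4, Kcnip1, Kcnk5 and Kcnn3. Regions of 1 gene share a locus and are not independent, so 15 of the 20 matches come from 3 loci. The RUNX motif TGTGGT was in 9 (11.8%, interval 6.36% to 21.0%), against 19.8%. The nuclear receptor hexamer AGGTCA or GGGTCA was in 13 (17.1%, interval 10.3% to 27.1%), against 23.3%, but in 20 (26.3%), against 23.8%, when counted around the library 2 summit. A DR1, which is 2 such hexamers with 1 base between and so overlaps the hexamer count, was in 0 of 76 with up to 1 mismatch, with an upper limit of 4.81%, against 1.57% of all regions. The interval includes the share over all regions.

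The voltage-gated potassium pores (Kv) were the largest family, with 40 genes, of which 4 were marked (10%, interval 3.96% to 23.1%), with 20 regions. The marked genes were Kcna3, Kcna2, Kcng3 and Kcnh4. Another 2 had separate peaks of both libraries, 13 had library 1 peaks only and 21 had none.

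Kcna3 encodes Kv1.3, a Kv channel known from T cells, macrophages and microglia. The gene is a single short unit at chr3:107036162-107038129 on the plus strand (mm10). Its 15 regions lay between 53.6 kb upstream and 26.5 kb downstream and covered 30.3 kb in all. In all, 40 library 1 peaks and 29 library 2 peaks were nearest to this gene. The strongest, chr3:107032706-107042649, was 9944 bp wide and spanned the whole gene and its TSS. Its fold enrichment was 23.4 in library 1 and 17.6 in library 2, at rank 32 of 20233, the strongest region of any channel gene. The summits of its highest peaks in the 2 libraries were 89 bp apart. Both lay upstream of the TSS, at -1.12 kb in library 1 and -1.03 kb in library 2. The region also spanned the TSS of AI504432, a long noncoding RNA (lncRNA) gene on the same strand downstream of Kcna3.

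Around it stood 3 further regions of the top 10%. The region 36.5 kb upstream had fold enrichments of 18.7 in library 1 and 10.7 in library 2, at rank 440, and holds a PU.1 match near its summit. The region 39.7 kb upstream had 13.9 and 11.5, at rank 678. The region 26.5 kb downstream had 13.3 and 9.54, at rank 869, and its summit lies among the 3 AP-1 matches printed above. The other 11 regions were weaker, with library 1 values of 2.61 to 9.48 and library 2 values of 3.68 to 6.75. Of the 15, 5 lay in the body of AI504432 and 9 between genes. When noncoding genes could also take a region, 6 of the 15 stayed with Kcna3 and 9 went to AI504432.

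The promoter of Kcna3 lies inside the strongest region but does not hold its summits. It is shown from 250 bases before to 50 after the TSS, from RefSeq on GRCm38.p6, the assembly of mm10, beside the promoters of Kcnj2 and Kcnn3, the only other channel genes with a region across their own TSS. None of the 3 holds an exact match to DR1 or to the hexamer, PU.1, CEBP, AP-1 or RUNX patterns given above, so all bases are in lower case. Among 32851 promoters of this length, 27.5% hold the hexamer, 16.8% RUNX, 10.8% CEBP, 7.81% AP-1, 3.20% PU.1 and 0.128% an exact DR1. G and C make up 75% of the Kcna3 sequence, 66.7% of the Kcnj2 sequence and 57.7% of the Kcnn3 sequence, with 37, 18 and 11 CpG sites.
Kcna3 promoter, chr3:107035912-107036211, plus strand: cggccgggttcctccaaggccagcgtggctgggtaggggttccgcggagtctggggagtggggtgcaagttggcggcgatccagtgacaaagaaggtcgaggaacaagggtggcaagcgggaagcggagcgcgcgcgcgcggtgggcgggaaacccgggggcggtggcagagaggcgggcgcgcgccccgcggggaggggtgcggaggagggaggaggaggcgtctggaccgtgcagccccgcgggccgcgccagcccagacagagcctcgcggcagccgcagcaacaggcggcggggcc
Kcnj2 promoter, chr11:111065914-111066213, plus strand: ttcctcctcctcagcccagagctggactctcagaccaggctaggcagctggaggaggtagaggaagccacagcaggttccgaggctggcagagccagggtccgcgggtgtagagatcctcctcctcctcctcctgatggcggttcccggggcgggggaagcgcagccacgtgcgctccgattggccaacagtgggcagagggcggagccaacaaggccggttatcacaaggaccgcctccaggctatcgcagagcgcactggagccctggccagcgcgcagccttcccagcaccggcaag
Kcnn3 promoter, chr3:89519914-89520213, plus strand: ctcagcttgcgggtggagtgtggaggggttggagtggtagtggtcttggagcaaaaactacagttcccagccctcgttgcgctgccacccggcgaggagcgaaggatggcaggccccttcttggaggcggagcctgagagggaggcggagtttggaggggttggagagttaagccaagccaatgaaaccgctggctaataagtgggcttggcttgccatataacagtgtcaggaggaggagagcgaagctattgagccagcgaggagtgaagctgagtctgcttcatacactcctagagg

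Kcna2, which encodes Kv1.2 and lies next to Kcna3 on the same strand, had 2 regions upstream. The region 16.8 kb upstream had fold enrichments of 9.48 and 5.63 in libraries 1 and 2, and that 14.1 kb upstream had 11.3 and 4.52. Kcna3 was the second nearest coding gene for both. Kcna10, the next Kv gene of the cluster, had no region.

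The remaining 2 marked Kv genes had modest values. Kcnh4, a channel of the ether-a-go-go family, had 2 regions in its own introns, 1.55 kb and 0.513 kb downstream of its TSS. The first had 9.48 in library 1 and 5.99 in library 2, and the second 12.7 and 4.85. Kcng3, a silent subunit that modifies other Kv pores, had 1 region 13.6 kb upstream with 6.81 in library 1 and 11.2 in library 2. The library 2 value was the higher one, as at 18 of the 76 regions (23.7%) and 28.2% of all regions, and Mta3 was the second nearest gene.

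Potassium pores with Kcnma, Kcnn, Kcnt or Kcnu symbols were grouped as a family. Most of its members are opened by intracellular calcium or sodium, whereas Kcnu1 was placed in it by symbol. Of these 8 genes, 3 were marked (37.5%, interval 13.7% to 69.4%), with 7 regions. Kcnn3, which encodes the small-conductance channel SK3, had 4, but 0 when peaks of the libraries had to overlap reciprocally by 50%. A region of 408 bp spanned its TSS, with its centre 44 bp downstream, and had 12.1 in library 1 and 4.52 in library 2. The other three were in its introns, 56.2, 58.9 and 64.1 kb downstream. The middle one was the strongest by rank, with 10.1 and 5.91. Kcnn1, encoding SK1, had 1 region 2.92 kb downstream (7.998 and 4.07) and 1 lying 2.65 kb upstream (6.22 and 4.23). Kcnu1, a potassium channel known from sperm, had 1 region 0.881 kb upstream (5.28 and 4.24), and the TSS of the neighbouring gene Ash2l is 1.05 kb from its centre. Kcnn1, Kcnn3 and Kcnu1 each lost their mark under at least 1 of the 4 stricter settings. Kcnn4, the intermediate-conductance channel of macrophages and other blood cells, had no peak of either library. Kcnma1, the large-conductance channel, had 1 library 1 peak, of 5.33, in a territory of 1113 kb.

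Of the 15 inward rectifier pores, 2 were marked (13.3%, interval 3.74% to 37.9%), with 4 regions. These channels pass potassium most readily at negative potentials and hold the resting potential. Kcnj2, encoding Kir2.1, had 3 regions spread over its territory of 879 kb. The region across its TSS was weak, with 4.44 in library 1 and 3.68 in library 2, at rank 18163. A region 30.6 kb downstream had 5.63 and 5.07, and a region 225 kb downstream had 13.6 and 8.98, at rank 944. This last region lay between genes, on the side of the next coding gene, Sox9. With noncoding genes allowed, it went to the lncRNA gene Gm30158, whose TSS was 222 kb away. Kcnj15, encoding Kir4.2, had 1 region 15.6 kb upstream, in the body of the noncoding gene Gm31641, with 9.81 and 6.84.

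Of the 14 tandem-pore-domain (K2P) genes, which carry background potassium current, 2 were marked (14.3%, interval 4.01% to 39.9%), with 6 regions. Kcnk5, encoding the acid-sensitive TASK-2, had 3 regions between genes, all upstream. The strongest, 24.5 kb upstream, had 10.3 in library 1 and 12.9 in library 2, at rank 2435, and an AP-1 match lies near its summit. The region 32.5 kb upstream had 8.59 and 9.82, and that 23.4 kb upstream had 5.45 and 4.24. Kcnk7 had 3 regions, 7.09, 7.73 and 9.26 kb downstream, all in the body of the neighbouring gene Ehbp1l1. Their library 1 values were 4.15, 7.41 and 3.85, and their library 2 values 7.59, 4.52 and 4.52. Kcnk6 and Kcnk13, which are described in macrophages or microglia, had library 1 peaks only. Kcnk6 had 4, with a highest fold enrichment of 5.33, and Kcnk13 had 5, with a highest of 5.04.

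Of the 17 auxiliary and regulatory genes of potassium channels, 5 were marked (29.4%, interval 13.3% to 53.1%), with 35 regions. Kcnrg encodes a cytosolic protein known in human cells to hinder the assembly of Kv tetramers, and its 17 regions were the most of any channel gene. All lay downstream of it, from 13.4 to 311 kb away, and none in its body. The lncRNA gene Dleu2, which hosts Mir15a and Mir16-1, contained 10 of the centres, and 7 were between genes. The strongest, 73.7 kb downstream, spanned the Dleu2 TSS and had 13.6 in library 1 and 9.26 in library 2, at rank 820. The second, 254 kb downstream, had 13.3 and 11.5, at rank 869. With noncoding genes allowed, all 17 regions went to Dleu2, Mir15a or Mir16-1, and Kcnrg had none. Its count therefore describes the Dleu2 locus, in which Kcnrg has the nearest coding TSS.

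Kcnip4 and Kcnip1 encode KChIP4 and KChIP1, calcium-binding subunits of Kv4 channels. Kcnip4 is a gene of 1135 kb and had 13 regions, 8 of them in its own body and 5 between genes. The strongest, 93.1 kb upstream, had 12.1 and 9.54 in libraries 1 and 2, at rank 1247, with matches to PU.1 and CEBP within 100 bp of the summit but outside the 81 bases shown. The region 139 kb upstream had 10.1 and 6.47, and its PU.1 match covers the summit. A promoter region centred 560 bp upstream had 5.92 and 5.07. Kcnip4 was the nearest gene of these regions with or without noncoding genes, and the second nearest coding gene, Adgra3, had no region. Kcnip1 had 3 regions 15.1 to 17.3 kb upstream, all in introns of 4930469K13Rik. The strongest had 15.4 and 8.42, at rank 1302, and the second nearest coding gene was Lcp2, a signalling adaptor of blood cells with 14 regions of its own.

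The other 2 marked auxiliary genes had 1 region each. Kcne3, whose product makes Kcnq1 channels conduct at rest, had a region in its intron 3.84 kb downstream, with 6.25 in library 1 and 5.91 in library 2. Kcnab3, a β subunit of Kv1 channels, had a promoter region 300 bp upstream with 5.04 and 3.82, among the weaker ones at rank 17694. Kcnab2, also a β subunit of Kv1 channels, had 1 peak of each library near its TSS, centred 0.105 kb (library 1, 5.04) and 0.793 kb (library 2, 4.43) downstream. They did not overlap, so it was not marked.

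Voltage-gated calcium channels (Cav) were marked only at auxiliary genes. Of the 10 pore genes none was marked (upper limit 27.8%), 2 had library 1 peaks only and 8 had no peak. Of the 8 auxiliary genes, which hold the β and the α2δ subunits, 2 were marked (25%, interval 7.15% to 59.1%), with 4 regions. Cacnb4 had 3 in its introns, 33.5, 35.1 and 45.3 kb downstream. The values were 2.96 and 4.18, then 11.3 and 6.19, then 11.6 and 5.91 in libraries 1 and 2. Cacnb2 had 1 intronic region 27.5 kb downstream, with 6.22 and 4.24, in which a PU.1 match was found. Both genes encode β subunits, which bring the pore to the membrane. Cacna1d had 1 library 1 peak (3.85) and Cacna1e had 2, the higher at 5.92.

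Voltage-gated sodium channels (Nav) were not marked at any of 10 pore genes (upper limit 27.8%) or 4 β subunit genes (upper limit 49.0%). Of the pore genes, 7 had no peak at all and Scn2a had 1 peak of each library at separate places, of 3.12 and 3.96. Scn8a, a sodium channel described in macrophages, had no peak of either library. All 4 β subunit genes were without a peak. The upper limit for the pore genes is below the all-gene share of 31.6%, and that for the 4 β subunit genes is above it.

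Unmarked channel genes can still have peaks of 1 library. Kcnv1, a silent Kv subunit with a territory of 2002 kb, had 18 library 1 peaks, the highest at 4.74, and no library 2 peak. Kcnt2 had 22 and 1 peaks of libraries 1 and 2 over 1729 kb, Kcnd2 had 15 and 1 over 1493 kb, and Kcnj3 had 15 and 0 over 1339 kb. No library 1 peak of an unmarked channel gene was above 6.22, which Kcnq1 reached, and no library 2 peak was above 5.63, which Kcnj16 reached. Next in library 1 came Kcna4 and Cacna1e at 5.92, Kcna7 at 5.63, and Cacnb1, Kcnip3, Kcnk6 and Kcnma1 tied at 5.33. Of the 108 unmarked channel genes, 102 (94.4%) had no library 2 peak, as had 94.8% of all unmarked genes, and the rule that a mark needs both libraries largely fixes this share. Kcna5, the Kv1.5 subunit that pairs with Kv1.3 in macrophages, had no peak of either library.

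Some unmarked channel genes did contain consensus regions that were nearer to another gene's TSS. There were 8 such regions in 6 genes. Kcnq1, whose product carries cardiac and epithelial potassium current, held 2. The region chr7:143296488-143296728 spanned the TSS of Kcnq1ot1, the antisense lncRNA that starts within Kcnq1 and is known for imprinting. It had 3.85 in library 1 and 5.07 in library 2. The second, with 5.33 and 3.68, was centred 2.17 kb from the same TSS, and both were assigned to Cdkn1c, 164 and 167 kb away, as the nearest coding gene. Cacna1c held 2 regions at the start of the overlapping gene Dcp1b, with 5.04 and 5.35 at its TSS, and 6.22 and 4.79 beside it. Cacna1d, Kcnab1, Kcnh7 and Kcnq3 held 1 region each, with library 1 values of 7.11, 5.77, 6.73 and 8.89 and library 2 values of 4.52, 4.24, 4.79 and 3.96. Thus 2 Cav pore genes and 4 potassium channel genes had binding inside the gene that the nearest-TSS count gives to others.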

How the data were processed

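The study measured PPARγ binding by HT-ChIPmentation in 2 PPARγ libraries, each with an input library, the 2 inputs being used only in peak calling. Per the labels and the study's methods, the authors trimmed reads with cutadapt, aligned them to mm10 with Bowtie2, kept properly paired, non-duplicate reads with SAMtools and called peaks per library with MACS3. The deposited peak lists give each peak's fold enrichment over input as a ratio, the −log10 of its q-value, and the position of its summit. They hold no read counts, so the read depth behind a value cannot be read from them. The paper gives sequencing quality data for HT-ChIPmentation separately, and these were not used here. Library 1 holds 83787 peaks and library 2 28535, and the largest q-values are 0.0497 and 0.0464.

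Peaks were merged by 1 bp overlap, and regions with peaks of both libraries were assigned to the nearest TSS of curated RefSeq transcripts of protein-coding genes (GRCm38.p6) with pandas 2.3.3 and numpy 2.4.6. The code was tested on simulated peaks. Motif matches were counted within 100 bp of the library 1 summit. No test was run, since there is 1 group of 2 libraries. Intervals are 95% Wilson intervals. The genes named are all marked genes, the 5 unmarked ones with the longest territory, the 5 with the highest peak in each library (with ties), and 12 channels described in macrophages or microglia, of which 1 is not reported here. Genes and lists were chosen with earlier results of these data known. Gene-body regions and the lncRNA genes were singled out after their values were seen. Alternatives were stricter peak thresholds and overlaps, each library alone, a shortened library 1, other assignment rules and other motif windows.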

Additional observations from a re-analysis of the deposited data

How the results depend on the processing

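The count of 18 marked channel genes stayed within 13 and 18 under 9 alternatives that kept both libraries, and its share stayed under the all-gene share under each of them. The count was 17 at a q-value of at most 0.001 (all genes 30.2%), 13 at a fold enrichment of at least 5 (22.7%), 14 at a reciprocal overlap of 50% (22.4%), 13 with summits at most 100 bp apart (24.2%) and 18 with library 1 shortened to as many peaks as library 2 (28.5%). With noncoding genes allowed it was 17, without Kcnrg. The genes changed more than the count. The 4 stricter settings lost 1, 5, 4 and 5 genes in the order above for q-value, fold enrichment, overlap and summits, and 9 of the 18 held under all 4. The gene-body rule, at 14 genes, kept 8, lost 10 and took in 6, and moved the inward rectifiers to 0 against 2, the tandem-pore-domain genes to 0 against 2 and the Cav pores to 2 against 0. The number of regions was 40 of 10719 at a fold enrichment of at least 5, 39 of 10420 at the reciprocal overlap and 37 of 11414 with close summits, against 76 of 20233, so that the share of all regions was 0.373%, 0.374% and 0.324%, against 0.376%. It was 49 with noncoding genes and 29 by gene body. With 1 library left out, the number of genes was 24 to 59, the share 19.05% to 46.8% and the number of regions or merged peaks 111 to 452, the lower values without replicate 1 and the higher without replicate 2, so the count depends on requiring both. Motif shares within 250 bp were higher, at 43.4% for the nuclear receptor hexamer (all regions 45.1%), 19.7% for PU.1 (10.6%), 42.1% for CEBP (27.6%) and 34.2% for RUNX (37.1%), and DR1 stayed at 0. With the library 2 summit, the hexamer share was 26.3% against 23.8% of all regions, above rather than below the background. Taking promoters as within 3 kb of a TSS gave 15.8%, against 38.6% of all regions. The cause of these shifts was not tested. No paired analysis was possible because there is 1 group of PPARγ libraries and no result comes from a test.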

Other observations

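Other channel genes of the membrane and of organelles, 78 by a list that holds no Kcn, Cacna, Cacnb or Scn symbol, were marked at 24 (30.8%, interval 21.6% to 41.7%), with 90 regions, a share close to the 31.6% of all genes. Hvcn1, the voltage-gated proton channel of phagocytes, had 7 regions, the strongest 0.477 kb from its TSS with fold enrichments of 12.4 in library 1 and 7.87 in library 2. Store-operated calcium entry was marked at 4 of 5 genes, Stim1, Stim2, Orai1 and Orai2, of which Stim1 had the strongest region, with 14.2 and 11.8 at rank 616. Tpcn2, a channel of endolysosomes, had 18.7 and 11.0 near its TSS, at rank 364. Lrrc8d, a subunit of the volume-regulated anion channel, had 11 regions, the strongest with 16.0 and 13.7, at rank 343.

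Among the TRP channels, 2 of 8 Trpm genes and 1 of 6 Trpv genes were marked. Trpm1 had 8 regions, Trpm2 3 and Trpv2 3. None of 7 Trpc genes, none of 3 Mcoln genes and not the 1 Trpa gene was marked. None of 4 Hcn genes, the pacemaker channels of heart and brain, and none of 3 Ryr genes, the calcium release channels of muscle, was marked. Of the 3 Itpr genes, the calcium release channels found in most cells, Itpr1 had 2 regions and Itpr2 had 6. No difference between these lists was tested.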
